A study of Mus musculus with 4 samples.

Results

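The subject is a class of microarray probes that carry no gene name, only a genomic interval and a strand letter, such as chr10:69669025-69686275 with the letter R. They were chosen by name: every non-control probe whose identifier in the scanner files starts with chr or lincRNA:chr was a member. This gave 4450 of the 56605 non-control probes, and 0 names began with lincRNA. The members covered 3230 intervals on 20 chromosomes (1 to 19 and X), of which 832 had probes for both letters. An interval and letter had 1 probe in 3746 cases and from 2 to 6 probes in 316. The letters divided the probes almost evenly, 2227 with F, 2222 with R and 1 with none. F and R are read here as the forward and reverse strand, which no file header states. Intervals ran from 62 to 538251 bases, with a median of 7204, and lie on the mouse build mm9 (NCBI37), per the file headers. The working label for these probes is lincRNA loci, and it could not be checked because no annotation of mm9 was used here. They are called interval probes below, and no neighbouring gene is named.

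Long intergenic non-coding RNAs (lincRNAs) are transcripts that lie between protein-coding genes and are usually made by RNA polymerase II, then capped, spliced and polyadenylated. Their signal is typically lower and more restricted to certain cell types than that of mRNAs. In macrophages, Toll-like receptor ligands change many of them together with neighbouring mRNAs, and some act in the control of inflammatory genes, while others mark active enhancers or the act of transcription itself.

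The study compared lavage cells of wild-type and LysM-St18flox mice, given as peritoneal macrophage in the cell type label and as PEC in the titles, at 0 h or after 3 h of lipopolysaccharide (LPS), the bacterial outer membrane component sensed by Toll-like receptor 4. The 4 groups were wild-type 0 h, wild-type 3 h, LysM-St18flox 0 h and LysM-St18flox 3 h, with 1 array each. All mice had been injected with thioglycollate, which irritates the peritoneum and recruits leukocytes, and all cells were kept in medium with serum. The dose of LPS and the ages of the mice are not given in the sources used here, nor whether a sample pooled several mice. LysM names the lysozyme promoter, which is active mainly in macrophages and neutrophils, so other cells of a lavage may keep an intact St18, a gene for a zinc finger transcription factor. With 1 array in a group, no difference below has a replicate check, none was tested, and every value is a difference between single arrays. In such bulk samples, fewer cells of a type and less RNA per cell cannot be told apart.

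The signal unit is the log2 processed intensity minus the array's 75th percentile, so 0 marks the spot at that percentile. That percentile was an intensity of 672, 755, 1067 and 882 on the wild-type 0 h, wild-type 3 h, LysM-St18flox 0 h and LysM-St18flox 3 h arrays. Between 52.2% and 55.6% of all spots were well above background, the flag the scanner software sets for a detected spot. Repeat spots of a probe had a median standard deviation of 0.03 to 0.04 (log2), which covers spot error only. By 1 of its 2 probes, St18 itself was lower in LysM-St18flox by at least 7.07-fold at 0 h and 8.48-fold at 3 h, and no array detected the other. All 7 macrophage markers were above background on all 4 arrays. Only Lyz2 among them was past 2-fold between the genotypes at 0 h, higher in LysM-St18flox by 1.20. At 3 h none was, and Lyz2 differed by -0.23. Markers of other cell types were also detected and differed between the genotypes: 5 of 6 measured B cell markers were past 2-fold upward in LysM-St18flox at 0 h (median difference 2.71) and 5 of 6 at 3 h (2.72), and all 3 measured erythroid markers were higher (2.79 and 3.27). All 5 measured mesothelial and fibroblast markers were lower (-1.69 and -1.89), as were 3 of 6 neutrophil markers (list medians -0.86 and -1.05). The remaining neutrophil markers, Csf3r, Mmp8 and Camp, differed by 0.69, 0.01 and 0.38 at 0 h and by -0.01, -0.41 and -0.43 at 3 h. T and NK cell markers had 3 measured members at 0 h, with a median of -0.17, and 4 at 3 h, with a median of 0.00. These medians hide members that went different ways. Cd3d differed by 1.48 at 0 h and 1.37 at 3 h, Cd4 by -1.04 and 0.10, and Cd3e by -0.17 and -0.10. Klrb1c, measured at 3 h only, differed by -0.89. As a check of the stimulus, 12 of 12 measured genes of a 16-gene LPS response list were higher in wild-type cells (median 7.28) and 13 of 13 in LysM-St18flox cells (7.39), and the remaining 4 and 3 were higher by a bound.

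Interval probes were detected less often than other probes. On the wild-type arrays 39.6% were above background at 0 h and 40.3% at 3 h, and on the LysM-St18flox arrays 39.9% and 44.3%. The other 52155 probes gave 51.0%, 52.0%, 52.1% and 54.4% in the same order. All 4 arrays detected 1425 interval probes (32.0%), against 46.1% of other probes, 56.9% of RefSeq mRNA probes and 25.2% of RefSeq non-coding RNA probes. The share of interval probes thus lay between those of the mRNA and the non-coding RNA probes. No array detected 2144 of them (48.2%, against 39.8% of other probes). Another 388 were detected on a single array (8.72%, against 6.55% of other probes). That array was wild-type 0 h for 124 (2.79%, against 1.72% of other probes) and wild-type 3 h for 74 (1.66%, against 1.31%). It was LysM-St18flox 0 h for 74 (1.66%, against 1.41%) and LysM-St18flox 3 h for 116 (2.61%, against 2.1%). Detection on both 3 h arrays and neither 0 h array was seen for 91 probes (2.04%, against 1.5% of other probes), and on both 0 h arrays only for 34 (0.764%, against 0.719%). Detection in both LysM-St18flox arrays and neither wild-type array was seen for 58 (1.3%, against 0.94%), and the reverse for 13 (0.292%, against 0.272%). These last 4 patterns had the same order in both classes of probes.

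The 1425 probes detected on all 4 arrays had a median normalized signal of -1.81, against -0.03 for other probes, 0.46 for RefSeq mRNA probes and -1.32 for RefSeq non-coding RNA probes. Of them 336 (23.6%) lay above 0. These medians describe spot brightness, which also depends on each probe's own hybridization, and they do not order RNA amounts. Longer intervals were detected on all 4 arrays more often: 24.1% of probes for intervals under 1 kb, 32.6% from 1 to 10 kb, 33.7% from 10 to 30 kb and 37.2% above 30 kb. The brightest interval probe, chr8:48476637-48492537 (F), read 8.47, 8.32, 7.88 and 8.06 on the 4 arrays (always in the order wild-type 0 h, wild-type 3 h, LysM-St18flox 0 h, LysM-St18flox 3 h). chr17:17481706-17482457 (R) read 7.55, 7.45, 7.21 and 7.33, and chr7:108209996-108216032 (R) read 7.40, 7.25, 7.01 and 7.19. None of these 3 bright probes differed by 2-fold between any of the arrays. The other 5 of the 8 brightest probes, on chromosomes 11, 14, 4, 6 and 5, stayed within 2-fold as well, the widest being chr5:96591892-96606467 (F) at 6.79, 6.59, 5.85 and 6.33. Its other 2 probes, also bright, read 6.16, 5.72, 4.90 and 5.43, and 6.34, 5.92, 5.16 and 5.61, so for both the LysM-St18flox 0 h value was more than 2-fold below that of wild-type 0 h.

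After 3 h of LPS, more interval probes were lower than higher in both genotypes under the 75th percentile scaling, while the large differences were mostly upward. In wild-type cells 1498 interval probes were detected at both times. Of these, 154 were higher by 2-fold or more and 207 lower, together 24.1%, against 21.9% of other probes (10.6% higher and 11.3% lower). Their median difference was -0.15, and that of other probes -0.06. In LysM-St18flox cells 1653 were detected at both times, with 100 higher and 145 lower, together 14.8% against 17.2% of other probes (8.05% higher and 9.11% lower). Their median was -0.06, and that of other probes -0.09. The interval probes changed somewhat more often than other probes in wild-type cells and somewhat less often in LysM-St18flox cells, and neither share was far from the background.

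The balance of higher and lower probes depended on the scaling. Of the 2-fold differences, 42.7% were upward in wild-type cells, which became 53.8% in the authors' deposited value table. In LysM-St18flox cells the share was 40.8%, against 56.7% with quantile normalization, 64.9% with scaling to the median and 63.7% in the deposited values. The LysM-St18flox median turned from -0.06 to 0.03, 0.17 and 0.10 under these settings in the same order. Scaling to the median moved the median of all probes by 0.23 in this comparison, so no direction of the class as a whole is given here.

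At 4-fold or more, 45 interval probes were higher and 37 lower in wild-type cells (3.00% and 2.47% of those measured, against 3.22% and 1.83% of other probes). In LysM-St18flox cells 42 were higher and 22 lower (2.54% and 1.33%, against 2.77% and 1.23%). At 8-fold or more wild-type cells had 14 higher and 1 lower (other probes 1.22% and 0.3%), and LysM-St18flox cells had 17 higher and 0 lower (1.11% and 0.247%). A probe detected on 1 side only was given a bound, the bright value against the higher of its own dim value and the lowest value among detected probes of the dim array. Such bounds passed 2-fold upward for 99 and downward for 122 of 560 probes in wild-type cells (17.7% and 21.8%, other probes 21.8% and 22.2%). In LysM-St18flox cells they did so for 59 and 81 of 442 (13.3% and 18.3%, other probes 15.7% and 24.7%).

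The 2 LPS differences, which share no array, were set against each other over the 1425 probes detected on all 4 arrays. In both genotypes 70 probes were higher by 2-fold or more (4.91%, against 6.19% of other probes) and 57 lower (4.00%, against 5.89%). None was 2-fold in opposite directions, near the 0.116% of other probes. With quantile normalization and in the deposited values 3 were. The shared higher and lower counts were 59 and 31 with normexp background correction, 63 and 75 with the percentile taken over detected probes, 78 and 40 with scaling to the median and 76 and 42 in the deposited values, so their balance also depended on the setting. Only the wild-type difference passed 2-fold for 216 probes, 78 higher and 138 lower (15.2%, against 9.5% of other probes). Only the LysM-St18flox difference did for 59, 23 higher and 36 lower (4.14%, against 4.4%). The sign was shared by 935 probes (65.6%, against 75.8%). Across probes, which share arrays, slide and labelling and are not replicates, Pearson's r was 0.68 and Spearman's rho 0.50. Pearson's r was 0.82 for other probes, 0.85 for RefSeq mRNA probes and 0.68 for RefSeq non-coding RNA probes. Changes in wild-type cells alone made up 11.7% of RefSeq non-coding and 13.3% of predicted non-coding RNA probes, nearer to the 15.2% of interval probes than the 8.73% of RefSeq mRNA probes.

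**Figure D1:**
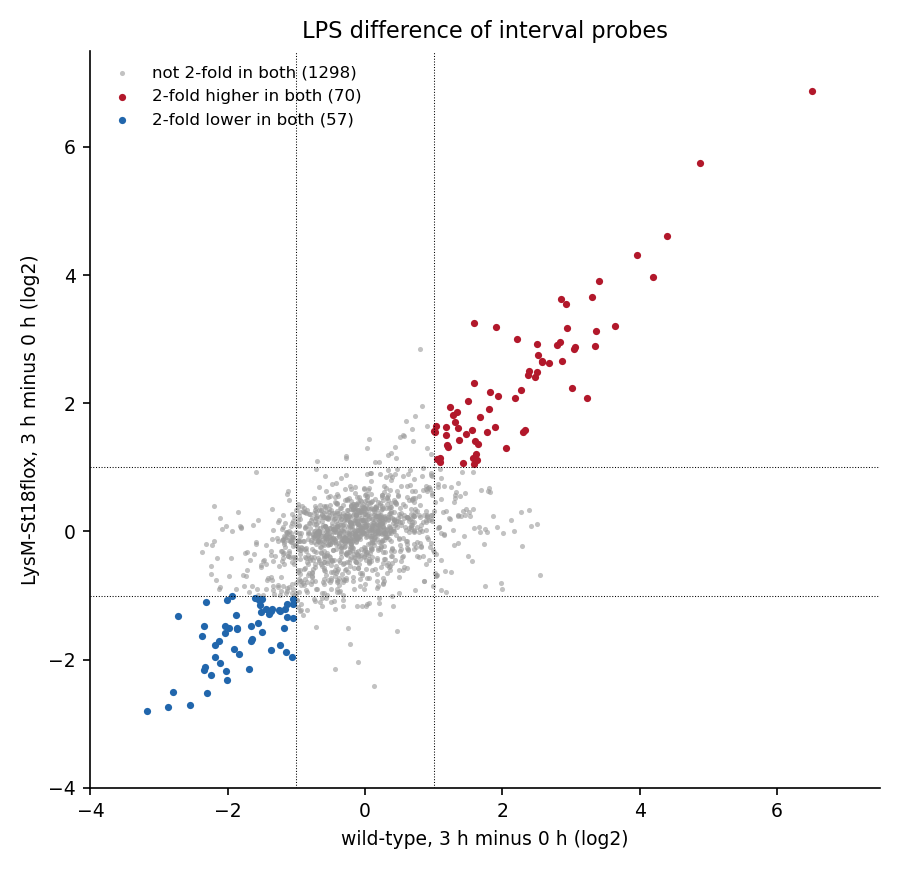
LPS difference (3 h minus 0 h, log2) of the 1425 interval probes detected on all 4 arrays, wild-type on the horizontal and LysM-St18flox on the vertical axis, each point 1 probe and dotted lines at 2-fold. The 70 probes higher in both genotypes reach 6.51 and 6.87, the 57 lower in both reach -3.17 and -2.80, and the grey points spread further along the wild-type axis.

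The 70 shared higher probes stood for 64 interval names and, after overlapping intervals of a strand were merged, 56 loci on all 20 chromosomes. Their median differences were 2.0 in wild-type and 2.1 in LysM-St18flox cells, which the 2-fold limit itself shapes. The largest was that of chr10:69669025-69686275 (R), an interval probe that read -2.01, 4.50, -2.27 and 4.60, differences of 6.51 and 6.87. Both stimulated arrays were far above both unstimulated ones, and the genotypes overlapped closely. The probe of the same interval with the letter F was detected on only 1 array, with readings of -2.97, -4.89, -4.11 and -4.71.

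Next was chr7:111530578-111539097 (R), with -2.17, 2.71, -2.24 and 3.51, so it was higher by 4.88 and 5.75. It lies within chr7:111526943-111545093 (R), whose own probe read 1.37, 4.30, 1.30 and 4.85, higher by 2.93 and 3.55. Both R probes were thus brighter at 3 h than at 0 h in each genotype, and the second was above the 75th percentile at 0 h already. The F probes of the longer interval read -1.83, -1.49, -2.08 and -1.51, and 0.54, -0.05, 0.90 and -0.05, all within 2-fold of their 0 h value.

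On chromosome 2, chr2:128211990-128215223 (R) read -0.13, 4.27, -0.04 and 4.56, which is 21.1-fold and 24.3-fold higher after LPS. About 2 kb on, chr2:128217275-128217972 (R) was not detected at wild-type 0 h and read 1.53 at wild-type 3 h, higher by at least 51.2-fold there. In LysM-St18flox cells it read -3.10 and 1.89, a difference of 4.99. Also in the region, chr2:128249388-128250301 (F), was detected at 3 h only, with -0.03 and -0.35, and was higher by at least 16.1-fold and 13.8-fold. All 3 intervals had their detected or brighter values on the stimulated arrays.

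Overlapping probes gave like values on chromosome 11, where chr11:119254413-119296960 (F) read -0.44, 3.53, -0.49 and 3.82, higher by 3.97 and 4.31. chr11:119250824-119286324 (F) read -3.19, 0.19, -3.07 and 0.05, higher by 3.37 and 3.12. The R probe of the latter interval was detected only at 3 h, with -1.78 and -1.56, so at this locus both letters gave their higher signal after LPS. Of the 10 largest, 2 lie on chromosome 1 and are given with that chromosome. The other 3 were chr17:84470764-84486339 (R), which differed by 3.40 and 3.91, chr6:57583950-57624216 (F), by 2.95 and 3.17, and chr12:70602812-70603402 (F), by 3.31 and 3.66. A second probe with the name of the chromosome 12 interval was not detected on any array, so that value rests on 1 probe of 2.

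The largest LPS values of all stood on chromosome 16, outside that ranking because they were not detected at wild-type 0 h. chr16:84708695-84708806 (F), an interval shorter than 1 kb, read 5.24 at wild-type 3 h, at least 667-fold above wild-type 0 h, and in LysM-St18flox cells it read -2.79 and 5.40, a difference of 8.19. chr16:84702353-84710928 (R), which spans it, read 4.03 at wild-type 3 h, at least 289-fold higher, and read -2.48 and 4.25 in LysM-St18flox cells (6.73). chr16:84707202-84707748 (F) was detected at 3 h only, at 1.94 and 2.14, and was higher by at least 67.8-fold and 77.4-fold. Another probe of the locus, chr16:84708005-84708675 (R), was detected on 2 arrays and read -4.96, -3.07, -4.91 and -3.16. Probes of both letters were therefore brighter at 3 h than at 0 h in each genotype, with sizes that differed widely between probes of overlapping intervals.

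**Figure D2:**
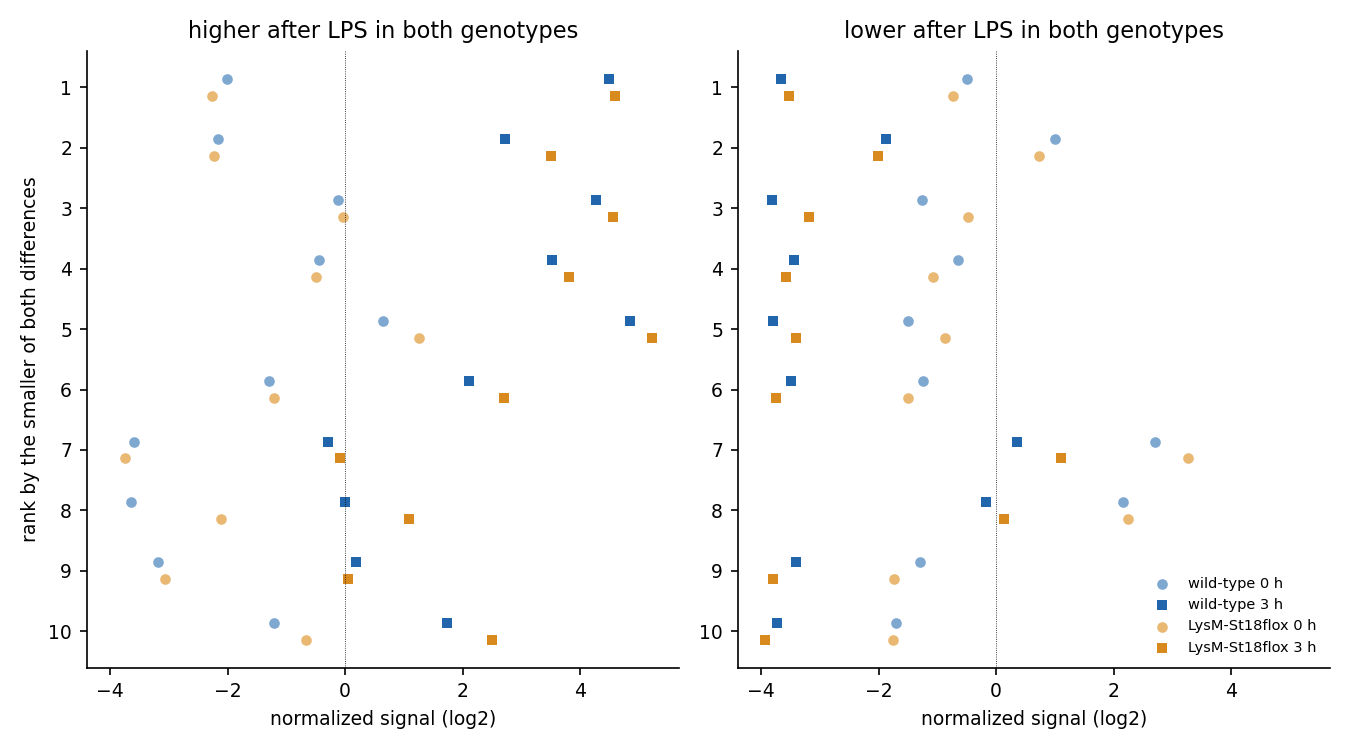
Normalized log2 signal on each of the 4 arrays for the 10 interval probes with the largest shared increase (left) and decrease (right), ranked by the smaller of the 2 genotypes' differences. Circles are 0 h and squares 3 h, blue is wild-type and orange LysM-St18flox, and in every line both squares lie on the same side of both circles.

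Chromosome 1 held 16 of the 70 shared higher probes, in 8 merged loci, from 102 probes measured there, while chromosome 8 came next with 6. A run of intervals is defined here as 3 or more on 1 strand with gaps of at most 50 kb. There were 272 such runs, of which 196 had a detected probe and 108 had at least 2. Of these, 5 had 2 or more intervals that changed by 2-fold in both genotypes, and within each of them the changed intervals had 1 direction. Intervals of a run may overlap or lie within one another, as the changed ones at chr1:87343550-87452625 (F) overlap. A shared direction can therefore be that of 1 locus. The run at chr1:175654606-175717250 (R) had all of its 7 probes higher in both genotypes, by 2.51 to 4.20 in wild-type and 2.50 to 3.96 in LysM-St18flox cells. Its brightest probe, 1 of 2 for chr1:175705225-175717250 (R), read 3.96, 7.0, 4.33 and 7.18, and the second read 0.64, 4.84, 1.26 and 5.22. All 3 probes for chr1:175654606-175672031 (R) were also higher, the first from 3.01 to 5.89 and from 3.45 to 6.11. Each of the 7 probes had both 3 h values above both 0 h values. The F probes of those 2 intervals were detected on 3 arrays each and not at wild-type 0 h, with 3 h values of -0.30 and -0.61 for the first and -1.14 and -1.56 for the second.

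The run at chr1:87343550-87452625 (F) had 2 shared higher intervals. The probe of chr1:87348082-87409907 (F) read 0.92, 3.44, 0.87 and 3.62 (2.52 and 2.76), and that of chr1:87343550-87362900 (F) read -2.18, -0.75, -0.84 and 0.22 (1.43 and 1.07). Another 2 intervals of this run were detected on the 3 h arrays only, and a second probe of the first interval was not detected at all. On chromosome X, the run at chrX:18734106-18853992 (R) held a probe at 1.81, 4.21, 1.85 and 4.34 (2.39 and 2.50). Its last interval, chrX:18810088-18814982 (R), read -2.79, -1.23, -3.11 and -1.53 (1.57 and 1.58). The interval that spans it, chrX:18744367-18853992 (R), was detected on 3 arrays and differed by -1.23 in wild-type cells. The run at chrX:11671167-11700242 (R) had 2 of 6 probes higher, by 1.1 and 1.59 in wild-type and 1.08 and 1.05 in LysM-St18flox cells, and 3 of its probes were not detected on any array.

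Elsewhere on chromosome 1, both probes for chr1:85304494-85305390 (R) were higher after LPS and higher in LysM-St18flox cells. They read -3.65, 0.00, -2.12 and 1.08, and -2.75, 0.61, -1.26 and 1.63. The LPS differences were 3.65 and 3.21 for the first and 3.36 and 2.90 for the second, and the genotype differences 1.53 and 1.09, and 1.48 and 1.03, at 0 h and 3 h. The probe of chr1:85036677-85038530 (R) read -2.38, 0.64, -1.14 and 1.1, higher by 3.01 and 2.23. A longer overlapping interval of the other letter, chr1:84947500-85045150 (F), behaved otherwise, with -3.78, -1.83 and -4.25 on the arrays that detected it and no detection at wild-type 0 h.

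The 57 shared lower probes stood for 54 names and 49 merged loci on 19 chromosomes, with median differences of -1.70 and -1.51. The largest was chr1:182180931-182186106 (R), at -0.49, -3.66, -0.73 and -3.53, lower by 9.03-fold and 6.99-fold. Its F probe was not detected on any array. chr7:16633756-16634410 (F) read 1.0, -1.88, 0.73 and -2.01, differences of -2.87 and -2.74. The 2 F probes of a longer interval that spans it, chr7:16584852-16657252, differed by only -0.28 and -0.19 in wild-type and 0.24 and 0.04 in LysM-St18flox cells, so the decrease was seen in the short interval alone.

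Other decreases were seen by several probes. chr17:26911397-26917047 (F) read 2.16, -0.17, 2.25 and 0.14, and 2 probes of the overlapping chr17:26911032-26912366 (F) read 0.77, -1.42, 0.64 and -1.13, and 0.78, -1.26, 0.53 and -1.05. All 3 had both 3 h values at least 2-fold below the 0 h value of the same genotype. chr6:31078802-31079644 (R), among the brighter of the decreasing probes, read 2.70, 0.35, 3.27 and 1.11. Chromosome 6 held 8 of the 57 shared lower probes, from 94 probes measured there, more than any other chromosome by count of probes. By merged loci it had 5, as did chromosome 5. On chromosome 15, chr15:86041745-86042157 (R) read -0.65, -3.44, -1.07 and -3.59, and chr15:86038874-86039233 (R) read -1.71, -3.74, -1.76 and -3.94. Both lie in chr15:86035939-86042539 (R), whose own probe differed by only -0.54 and -0.21. Another probe in the run, chr15:86039418-86039887 (R), was detected on 1 array, wild-type 0 h, at -3.58.

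Bounds above 1-fold that held in both genotypes covered 60 probes upward and 34 downward of 192 that were detected on 1 side in each genotype (31.2% and 17.7%, against 39.6% and 25.2% of other probes). Of the downward ones, chr4:101010948-101032148 (F) read -2.32 and -2.42 at 0 h and was not detected at 3 h, lower by at least 4.25-fold and 5.0-fold. chr9:96964067-96973567 (R) read -2.40 and -3.03 at 0 h and was lower by at least 4.01-fold and 3.27-fold. chr16:45016828-45069177 (F) was a reverse case, detected at 3 h alone and higher by at least 6.14-fold and 5.90-fold. The overlapping chr16:45014806-45029475 (F) had the opposite pattern, detected at 0 h alone at -2.95 and -0.73.

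Strand letters differed in how often their probes were detected and changed. All 4 arrays detected 674 of 2227 F probes (30.3%) and 751 of 2222 R probes (33.8%). In wild-type cells 20.3% of measured F probes and 27.5% of R probes were 2-fold apart after LPS, and in LysM-St18flox cells 14.5% and 15.1%. Shared higher probes were 24 of F (3.56%) and 46 of R (6.13%), and shared lower ones 18 (2.67%) and 39 (5.19%). Pearson's r between the genotypes' LPS differences was 0.58 over F and 0.74 over R probes. The R probes thus made up most of both shared sets, and other probes carry no letter to set this against. The 7 R probes of the run at chr1:175654606-175717250 are part of that count.

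Within an interval the letters seldom moved together. Of the 832 intervals with both letters, 148 had both detected on all 4 arrays, 152 only F, 199 only R and 333 neither. Over the 148, both letters changed by 2-fold in 1 direction for 8 intervals in wild-type cells, a single letter for 51, both in opposite directions for 2 and neither for 87. In LysM-St18flox cells the counts were 1, 16, 1 and 130. The letters' LPS differences lay at least 2-fold apart in 49 intervals (33.1%) and 22 (14.9%), with Pearson's r across intervals of 0.21 and -0.03.

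**Figure D3:**
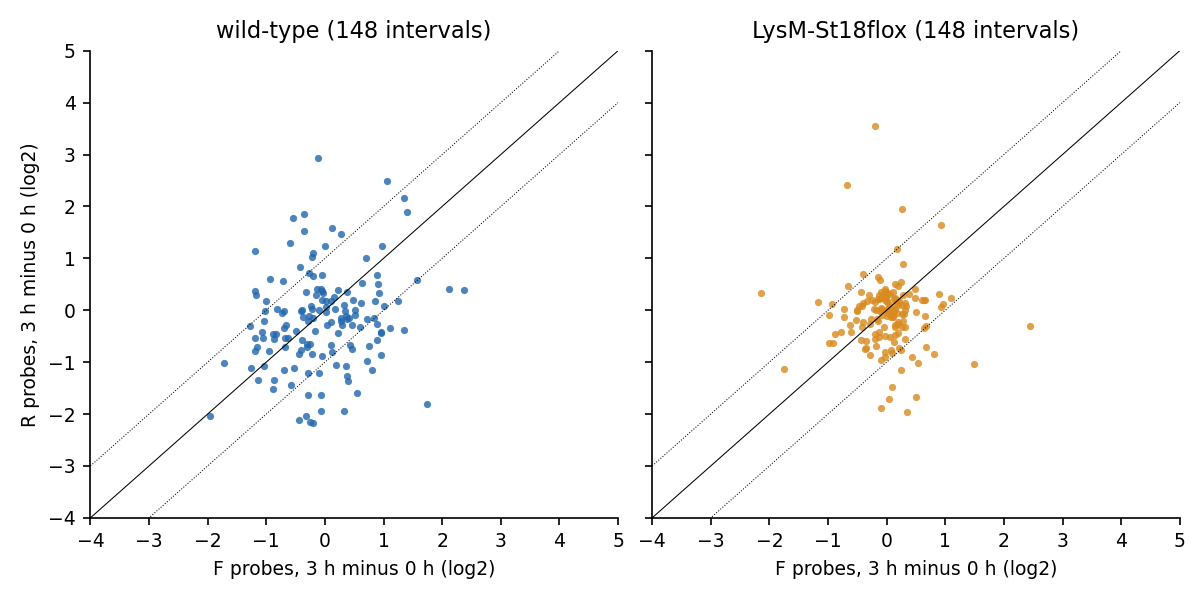
LPS difference (log2) of F probes on the horizontal and R probes on the vertical axis for the 148 intervals with both letters detected on all 4 arrays, wild-type left and LysM-St18flox right. The solid line marks equality and dotted lines 2-fold, and 49 points on the left and 22 on the right lie outside the dotted lines.

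Ranked by the smaller of both genotypes' gaps, the widest was that of chr7:111526943-111545093, described above, where R was higher by 2.93 and 3.55 while the mean of the F probes differed by -0.13 and -0.19. In chr11:102878974-102888924 it was F that was higher, by 2.37 and 2.45 (-3.42, -1.05, -3.59 and -1.15), while the detected R probe differed by 0.38 and -0.30. A second R probe of this interval was detected at 0 h only and was lower by at least 3.00-fold and 3.11-fold. In chr6:83368261-83407280 the F probe was among the brightest of the class, at 6.69, 6.49, 6.06 and 6.42. The R probe of that interval read 3.32, 1.14, 3.29 and 1.34, differences of -2.18 and -1.96. An overlapping R probe, chr6:83367433-83370986, gave -1.82, -4.16, -2.65 and -4.13, so both R probes there were lower at 3 h and the F probe was not.

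The letters opposed each other in chr14:78214602-78225827, where F differed by 0.55 in wild-type and 1.5 in LysM-St18flox cells and R by -1.60 and -1.04. In chr1:137482591-137625604 R differed by -2.12 and -1.71, and F by -0.45 and 0.04. These 5 intervals were picked for gaps wide in both genotypes. In wild-type cells alone chr11:19778600-19815950 had a wider gap, with F at 1.75 and R at -1.81, while in LysM-St18flox cells its letters differed by 0.04 and 0.05.

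Chromosomes varied around a common level. Detection on all 4 arrays ranged from 23.7% of probes on chromosome 3 to 43.0% on chromosome 14. The share 2-fold apart after LPS in wild-type cells ran from 18.0% on chromosome 18 to 35.4% on chromosome X (17 of 48 measured probes). In LysM-St18flox cells it ran from 8.45% on chromosome 7 to 24.8% on chromosome 1 (30 of 121). The wild-type median was above 0 on 3 of 20 chromosomes, between -0.35 on chromosome 16 and 0.04 on chromosome 19. The LysM-St18flox median was above 0 on 5, between -0.19 on chromosome X and 0.07 on chromosome 11. Scaling to the median adds 0.09 to every wild-type and 0.23 to every LysM-St18flox LPS difference. With 0.23 added, the LysM-St18flox median would lie above 0 on all 20 chromosomes. The signs and the balances of higher and lower probes per chromosome are therefore given for the main scaling only. Chromosome 1 stood out by direction too, with 22 probes upward and 8 downward in wild-type and 18 upward and 12 downward in LysM-St18flox cells, while 14 and 16 of the other chromosomes had no more higher than lower probes in those genotypes.

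**Figure D4:**
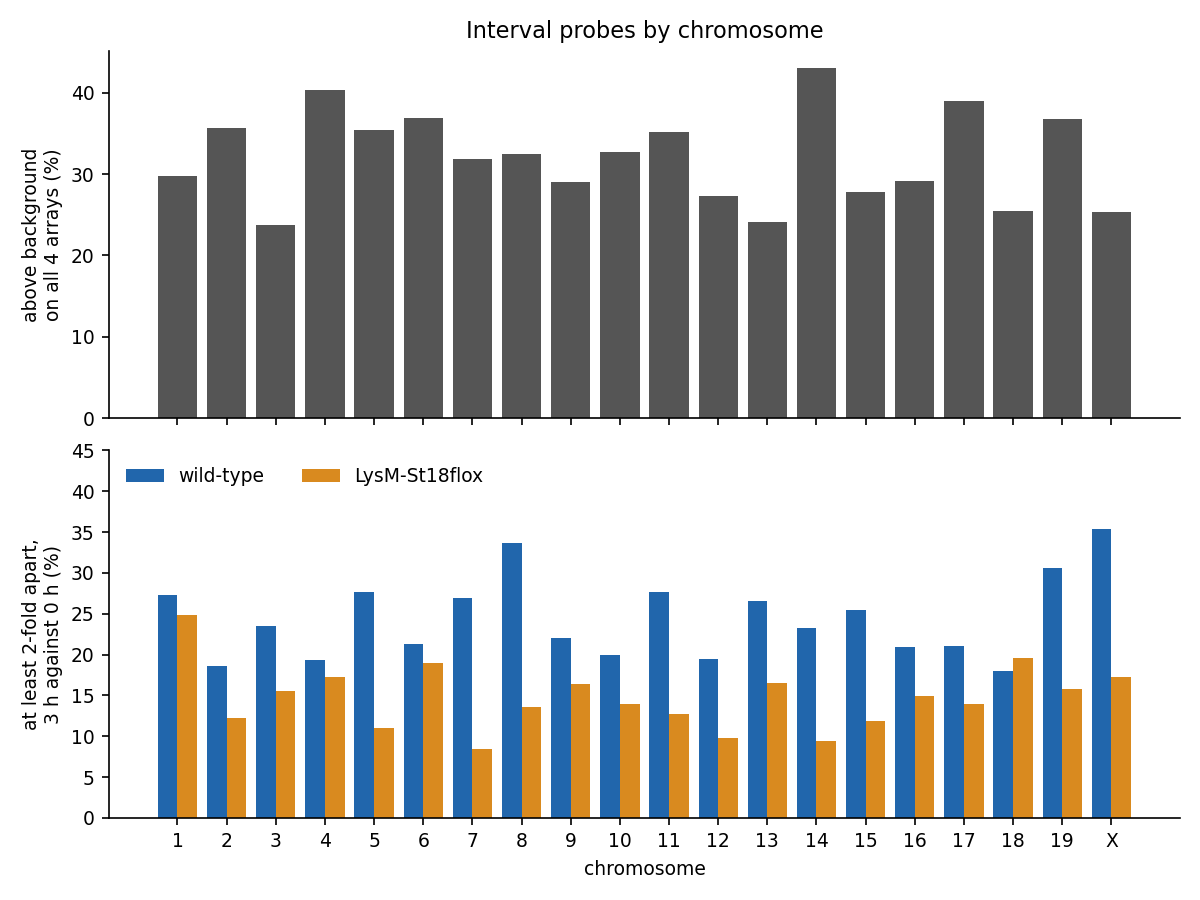
Percentage of interval probes detected on all 4 arrays (top) and percentage of measured probes at least 2-fold apart between 3 h and 0 h (bottom; wild-type blue, LysM-St18flox orange) for chromosomes 1 to 19 and X. Detection spans 23.7% to 43.0%, and the wild-type bar is the taller on every chromosome but 18.

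The genotype comparison at 0 h had more differing interval probes than that at 3 h. At 0 h, LysM-St18flox cells had 87 of 1513 measured probes higher by 2-fold or more and 109 lower, together 13.0%, against 8.08% of other probes (4.44% higher and 3.64% lower). The share was 12.5% among RefSeq non-coding and 14.6% among predicted non-coding RNA probes. For probes detected on all 4 arrays with a mean signal below -2 it was 13.1% in both interval and other probes. In brighter probes the interval share was the larger. It was 14.8% against 9.35% from -2 to 0, 11.3% against 5.15% from 0 to 2 and 8.33% against 4.48% above 2. The median difference over all measured interval probes was -0.16, against -0.01 for other probes. At 3 h, 12 of 1692 were higher and 28 lower, together 2.36%, against 3.11% of other probes (1.64% and 1.47%), with a median of -0.02. Of the differences at 0 h, 44.4% were upward, which became 29.6% with scaling to the median, a setting that moved the median of all probes by -0.14. At 0 h, bounds of at least 2-fold added 105 higher and 63 lower probes (20.5% and 12.3% of 512, other probes 23.1% and 12.7%). At 3 h they added 43 and 62 (11.3% and 16.2% of 382, other probes 13.2% and 19.3%).

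The wild-type 0 h array enters the genotype comparison at 0 h and the wild-type LPS comparison, and it stood apart from the other 3 for many interval probes. On 76 of the 1425 probes (5.33%) that array alone was at least 2-fold from the others, which lay within 2-fold of each other: 45 above them and 31 below. The same held for 2 probes (0.14%) on the wild-type 3 h array, 16 (1.12%) on LysM-St18flox 0 h and 0 on LysM-St18flox 3 h. Among other probes these shares were 2.45%, 0.304%, 0.615% and 0.141%. The part of this array in the genotype and wild-type LPS counts was not tested, and with 1 array in the group neither count can be given without it.

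**Figure D5:**
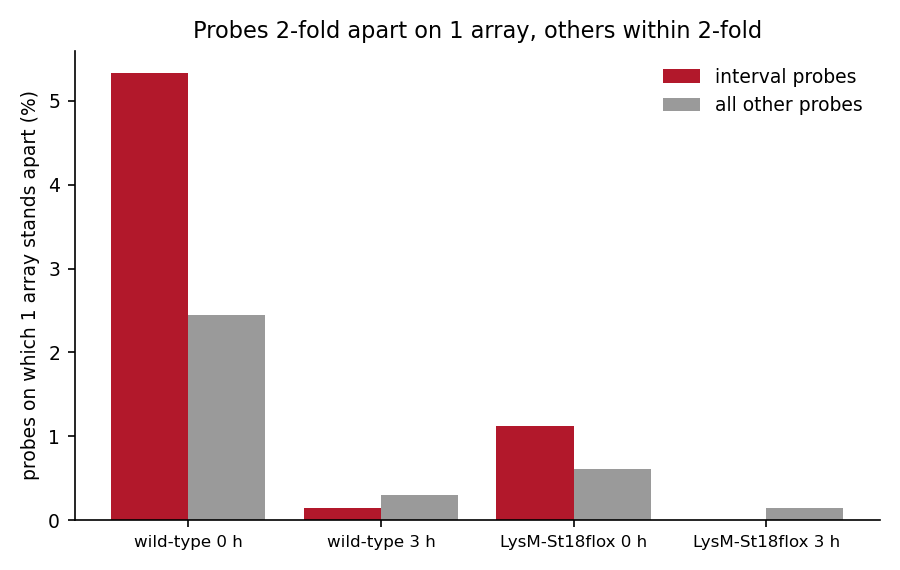
Percentage of probes detected on all 4 arrays for which 1 array lies at least 2-fold from the other 3 while those lie within 2-fold of each other, by array, for interval probes (red) and all other probes (grey). The wild-type 0 h array has the tallest bar in both classes, 5.33% and 2.45%.

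Among the 10 probes whose LPS differences parted most between genotypes, 5 in each direction, wild-type 0 h was the highest array in 5 and the lowest in 4. chr6:140904129-140992655 (F) read -1.78, -3.98, -3.95 and -3.55, differences of -2.20 and 0.40. chr9:51905865-51911474 (R) read 1.37, -0.21, -1.22 and -0.29, and chr12:53700970-53703612 (R) read 1.98, -0.13, 0.05 and 0.26. In these probes the wild-type 0 h value stood above the other 3.

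On chromosome 5, 3 F intervals had their lowest value on the wild-type 0 h array. chr5:15146475-15170100 read 1.34, 3.33, 4.12 and 3.22, chr5:14943275-14944205 read 1.41, 3.39, 4.14 and 3.33, and chr5:15033568-15033987 read -0.50, 1.24, 2.26 and 1.42. Their LPS differences were 1.99, 1.98 and 1.74 for wild-type and -0.90, -0.81 and -0.84 in LysM-St18flox cells. The values of these 3 probes ran in parallel over the 4 arrays. An overlapping F probe, chr5:14921737-14978834, did not, at -3.52, -4.14, -3.25 and -3.44. Both probes of the overlapping chr5:14923900-15062725 (F), detected on 3 arrays, gave LPS differences of 0.86 and -0.61, and 1.33 and -1.21. That of chr5:14996031-15035334 (F), detected on 1 array, gave 0.83 and -1.21. The exception among the 10, chr7:118248833-118267766 (F), read -3.38, -3.25, -1.22 and -3.63, with LysM-St18flox 0 h above the rest. The largest parting of all among measured probes was that of chr16:39984031-40081556 (R), at -1.16, 1.38, 0.44 and -0.24. It was higher in LysM-St18flox cells by 1.60 at 0 h and differed by -1.62 at 3 h.

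A genotype difference of at least 2-fold in the same direction at both times was seen for 9 of 1425 probes (0.632%, against 1.05% of other probes), 7 upward and 2 downward. With normexp background correction 0 of the 9 passed at both times, and with the stricter filter on dim probes 1 did, while the other scalings and the deposited values kept 7 to 9. chr8:26212577-26218527 (R) read -3.08, -2.47, -1.02 and -1.28, higher by 2.06 and 1.19. chr1:85117750-85129200 (F) read -2.61, -1.18, -0.47 and -0.14, higher by 2.15 and 1.04. A second probe for that interval and letter, detected on 1 array, gave 0.60 and 0.65. chr18:57124435-57134910 (R) was higher by 1.41 and 1.73, while its second probe, detected on all 4 arrays, gave 0.10 and 0.49. Both probes for chr1:85304494-85305390 (R) were among the 7, and with normexp the first gave 0.768 and 0.999, both under 2-fold. The 2 lower probes were chr17:46972160-46997919 (R), at 0.32, 0.12, -1.08 and -0.95, and chr11:117835849-117842574 (R), at -1.44, -2.12, -3.30 and -3.16. The 2 other probes for this chromosome 11 interval gave 1.05 and 0.18, and -0.69 and -0.40, so they did not share its value. On chromosome 17, the overlapping chr17:46989233-46990845 (R), detected on all 4 arrays, gave -0.02 and 0.24 and did not share the decrease either. Most B cell markers, the measured erythroid and mesothelial markers, 3 of 6 neutrophil markers and Cd3d differed with genotype at both times, as given above. Lyz2 and Cd4 passed 2-fold at 0 h only. The part of all these markers in the probe differences was not tested.

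The spread between probes for the same interval and letter shows how far a difference depends on the probe. It may include real differences along an interval, and it holds no error between arrays or mice. Within such names the standard deviation of a difference was 0.57 for LPS in wild-type cells, 0.49 for LPS in LysM-St18flox cells, 0.54 for genotype at 0 h and 0.34 for genotype at 3 h. Where a probe was 2-fold apart and another probe of the same name was measured, the other was also past 2-fold in that direction for 20 of 40 probes (50%) in wild-type cells and 20 of 37 (54.1%) in LysM-St18flox cells. For the genotype differences this held for 4 of 18 (22.2%) at 0 h and 2 of 7 (28.6%) at 3 h. Counted by probe, a 2-fold LPS difference was thus shared by a sister probe about as often as not, and a 2-fold genotype difference less often. These counts rest on few loci. All 7 probes of the run at chr1:175654606-175717250 (R) are among the 20 in each genotype. The 2 genotype cases at 3 h were the probes for chr1:85304494-85305390 (R), which were also among the 4 at 0 h. By contrast, repeat spots agreed closely: 5 interval probes were printed 10 times, and their spots had standard deviations between 0.02 and 0.13. Both repeated probes for chr6:116123643-116124550 (F) gave wild-type LPS differences of 0.22 and 0.19, and LysM-St18flox ones of 0.05 and 0.05.

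Named non-coding RNAs on the same arrays give a further point of reference. A list of 30 such genes had 24 with a probe, 18 of them detected on all 4 arrays. Of 19 measured in wild-type cells, 3 passed 2-fold upward and 2 downward (median -0.17), and of 18 in LysM-St18flox cells 2 and 3 did (median -0.41). Morrbid, a non-coding RNA that controls the lifespan of short-lived myeloid cells, read -0.78, 2.08, -1.36 and 1.95, higher by 2.86 and 3.31. Ptgs2os2, transcribed beside the cyclooxygenase gene Ptgs2, was detected at 3 h only, at -1.27 and -1.16. Lncpint, which is induced by p53, read 0.83, -1.99, 0.75 and -1.37. The members of the list were thus split between higher and lower, as were the interval probes.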

How the data were processed

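Members, lists and tests were chosen with earlier results of these data known. The deposited spot intensity values come from Agilent 1-colour arrays. The submitters' processing notes and the headers name Agilent Feature Extraction 11.0.1.1. The processed intensity is, per the file headers, background-subtracted and not normalized between arrays. The deposited value table holds log2 values, with a median of 9.58 in the wild-type 0 h column. How it was centred is not stated in any source used here, and it held exactly the 1425 interval probes detected on all 4 arrays. It served as an alternative.

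Here the log2 intensities of non-control spots without outlier flags were averaged per probe, and set relative to the 75th percentile over all non-control spots of the array. A probe was measured when well above background on the arrays compared, and called at 2-fold. No interval probe had a saturated spot among those kept. All 4 arrays lay on 1 slide, and no p-value was computed. Named probes were the 10 largest shared LPS differences in each direction, then the 5 largest of each genotype's own response, of bounds shared by both genotypes, of partings between responses and of genotype differences at both times. The 8 brightest, the 5 widest strand gaps and runs with 2 or more shared changes were added. Some named probes appear only in counts. The calculations used Python 3.11.15, pandas 2.3.3, and limma 3.58.1 in R 4.3.3 for the normexp alternative, and were tested on simulated data.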

Additional observations from a re-analysis of the deposited data

How the results depend on the processing

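No paired analysis was possible because each group has 1 array. Counts of interval probes past the limit, in the order LPS in wild-type (361), LPS in LysM-St18flox (245), genotype at 0 h (196) and genotype at 3 h (40), moved to 215, 131, 114 and 16 with normexp background correction. They moved to 1160, 747, 882 and 476 with no background filter, where most added probes lie near background, and to 143, 72, 70 and 7 with a filter at 4 times the lowest detected signal, which left 718 members. At a 1.5-fold limit they were 702, 535, 567 and 176, and at 4-fold 82, 64, 20 and 5. The deposited value table gave 22 for genotype at 3 h. The 127 probes changed in both genotypes became 298 with no filter, 57 with the stricter filter, 258 at 1.5-fold and 43 at 4-fold. Detection on all 4 arrays (32.0%) became 16.1% with the stricter filter. Intervals whose letters differed (49 and 22) became 329 and 231 with no filter. Other scalings kept these counts within 1.5 times, but not the balance of higher and lower probes, as given with the results. With normexp, 60.3% of the LysM-St18flox LPS differences were upward. Of 557 recomputed values of named probes, 0 changed sign and 52 moved by more than the spread between probes of a name. All were chosen as at least 2-fold, and scaling to the median or over detected probes only adds a constant below 2-fold. The absence of sign changes was thus largely set by that choice. Names that start with lincRNA could not be analysed alone, since there were 0. The number of arrays and signals near background limit all of these values.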
